A study of Mus musculus with 3 samples.

Results

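The genes described here are 51 genes of central carbon metabolism, chosen by gene symbol, out of 55536 annotated genes in the tables. They fall into 19 genes of glycolysis (with the glucose transporter gene Slc2a1), 4 genes of lactate formation and export, 7 genes of the pentose phosphate pathway, 5 genes of pyruvate entry into the mitochondrion, 14 genes of the tricarboxylic acid (TCA) cycle and 2 genes that use citrate or its product cis-aconitate, Acly and Acod1. All 51 symbols were found. Aldoa has a further gene ID, which held 0, 0 and 2 counts and was not used. The rule that picks them uses symbols and no threshold on a measured value, but the list was drawn up with earlier results of these data known.

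The RNA came from the cytosolic fraction of primary macrophages that had been grown from bone marrow of C57BL/6J mice and treated with lipid A at 100 ng/ml for 60 min. Lipid A is the membrane anchor of lipopolysaccharide, a bacterial product, and is sensed by Toll-like receptor 4. Ribosomal RNA had been depleted and each library was made from 1 µg of RNA. There are 3 libraries, all of this 1 group, named replicates 1, 2 and 3 after their labels. The labels carry the same donor entry for all of them and do not state separate mice or cultures. The p-values therefore reflect the spread among these libraries alone, which may be technical. Sex and age are not given. Untreated cells were not analysed here, so every value below is a level in treated cytosol and no induction was measured.

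Glycolysis splits glucose into pyruvate, which is either reduced to lactate and exported or taken into mitochondria to feed the TCA cycle. The pentose phosphate pathway branches off after the first step and yields NADPH and ribose. In macrophages exposed to lipopolysaccharide, glycolysis is known to rise, and the enzyme encoded by Acod1 decarboxylates cis-aconitate, an intermediate between citrate and isocitrate, to itaconate, an inhibitor of succinate dehydrogenase with effects on bacteria and on inflammation.

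The libraries held 64110863, 72057046 and 69345880 expected counts in replicates 1, 2 and 3. Abundance is given as TPM, which is scaled by transcript length and by the total of the library, so that levels of different genes can be compared. Protein-coding genes held 33.2, 22.0 and 24.0% of TPM, and the median tested protein-coding gene stood at 9.08, 5.76 and 6.86 TPM. Against that background all 51 genes had their highest TPM in replicate 1, and 48 had their lowest in replicate 2, which mirrors the median gene. Levels are therefore also given relative to the median gene of the same library. All 12 macrophage markers examined were above the median gene, from Itgam at 21.7 TPM to Lyz2 at 5032 TPM, with Cd14 at 485, Csf1r at 241 and Adgre1 at 145 TPM. Of 10 neutrophil markers 5 reached 1 TPM: S100a9, Csf3r, S100a8, Mmp8 and Ngp, at 15.9, 13.7, 10.1, 4.52 and 1.92 TPM. The others, Camp, Ltf, Elane, Mpo and Retnlg, stood at 0.153, 0.56, 0.16, 0.113 and 0.0333 TPM. Of 6 markers of stroma and endothelium only Kdr reached 1 TPM, at 2.28 TPM. Of 6 dendritic cell markers only Batf3 did so, at 1.25 TPM. No erythroid, skeletal muscle, B cell or T and NK cell marker reached 1 TPM, with sums of at most 0.1, 0.13, 0.89 and 0.1 TPM. The nuclear RNAs Malat1 (417, 122 and 322 TPM), Neat1 (38.9, 12.4 and 35.9 TPM) and Xist (8.81, 0.76 and 2.85 TPM) were lowest in replicate 2.

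**Figure D1:**
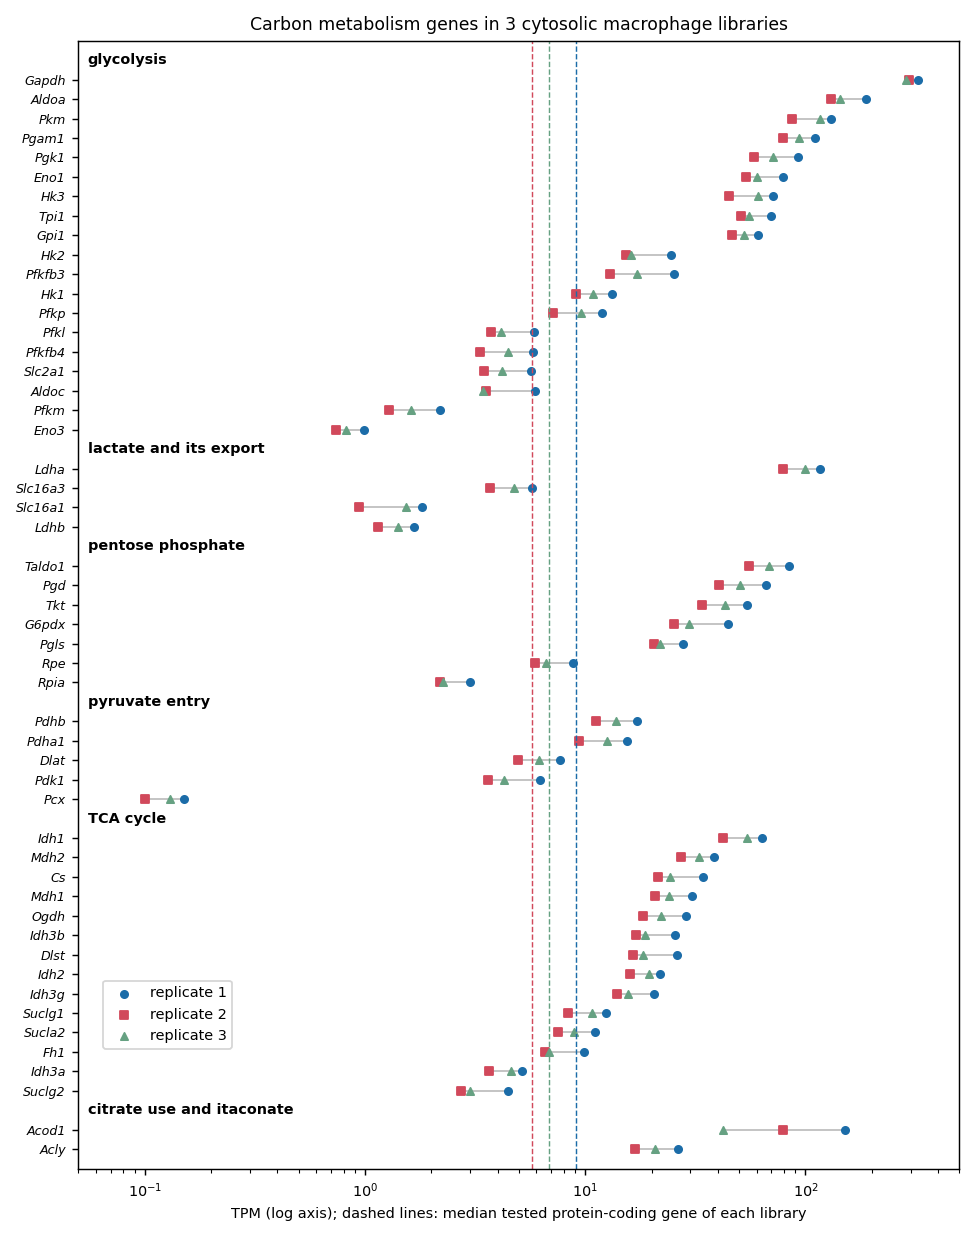
TPM (log axis) of each of the 51 genes in replicates 1, 2 and 3, ordered by mean within each branch; dashed lines mark the median tested protein-coding gene of each library (9.08, 5.76 and 6.86 TPM). Gapdh lies farthest right, Pcx farthest left, and Acod1 has the widest gap between libraries, from 42.1 to 151 TPM.

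Most of these genes lay above the typical expressed gene of the cell. Of the 49 genes with a mean of at least 1 TPM, 28 were called more than 2-fold above the median gene and 4 below it, and 17 were not called. The call is limma's treat test of log2(TPM + 0.1) against a band of 1 on the log2 scale, with Benjamini-Hochberg adjustment at 0.05. The same test called 26.3% of 9123 protein-coding genes above and 24.5% below. The remaining genes, Eno3 and Pcx, had a mean under 1 TPM. Together the 51 genes took 0.636, 0.659 and 0.647% of protein-coding counts in replicates 1, 2 and 3, with 95% Wilson intervals of 0.6344 to 0.6385, 0.6566 to 0.6607 and 0.6449 to 0.649% that cover counting error only. Their median level over all 51 was 1.37 ± 0.07 log2 units over the median gene (SD, n = 3), where the median over all tested genes is 0 by construction. The 72 other genes listed below for the same pathways and their carriers had a median level of -1.49 ± 0.09. Of those, 12 were above, 13 below and 28 under 1 TPM. The high level is thus that of the 51 chosen genes and not of every gene of these pathways.

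Medians were taken per branch over all of its genes. The pentose phosphate genes in the set had the highest median of the larger branches, 2.16 ± 0.10 log2 units over the median gene. The TCA cycle followed at 1.42 ± 0.05 and glycolysis at 1.39 ± 0.08. Among listed genes outside the set the medians were -1.86 ± 0.09 for pentose phosphate, 0.67 ± 0.08 for the TCA cycle and -3.87 ± 0.15 for glycolysis with lactate. Tkt counts here with all its transcripts, a mean of 43.8 TPM, of which coding transcripts held 9.82 ± 1.7 TPM. The order of the TCA cycle and glycolysis did not hold in every library: in replicate 1 glycolysis stood at 1.47 and the TCA cycle at 1.37, and it also turned in the second deposited quantification (1.03 and 0.93). Pyruvate entry stood at -0.20 ± 0.04 and the 4 lactate genes at -1.40 ± 0.08. Counts of genes above and below were 11 and 1 of 19 in glycolysis, 1 and 2 of 4 for lactate, 5 and 1 of 7 for pentose phosphate, 0 and 0 of 5 for pyruvate entry, and 9 and 0 of 14 for the TCA cycle. Both Acly and Acod1 were above.

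Of the genes for glucose uptake and phosphorylation, Hk3 had the most RNA. Slc2a1, which encodes the glucose transporter GLUT1, had 5.68, 3.47 and 4.21 TPM in replicates 1, 2 and 3 and was not called. Among the hexokinases, which trap glucose in the cell by phosphorylating it, Hk3 had 71.2, 45.1 and 61.2 TPM, Hk2 24.6, 15.3 and 16.2 TPM, and Hk1 13.2, 9.1 and 10.9 TPM. Hk3 thus made up 66.5 ± 2.44% of hexokinase TPM over these 3 genes, Hk2 21 ± 2.30% and Hk1 12.5 ± 0.524%. The order was the same in every library. Hk3 stood 3.01 ± 0.07 (SE) log2 units over the median gene (limma adjusted p = 7.5e-07) and exceeded Hk2 by 1.53, 1.55 and 1.91 on the log2(TPM + 0.1) scale. Hk2 exceeded Hk1 by 0.90, 0.74 and 0.57, a mean of 0.74 that was 0.16 in the second deposited quantification and 0.15 when only protein-coding transcripts were summed. The first transcript table put 33.9 ± 1.47% of Hk2 TPM on Hk2-202, a noncoding transcript of 594 bases, to which the second assigned 0%.

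Hk1 itself was divided between transcripts with different starts. Hk1-202, with a coding sequence of 918 codons, held 66.2, 53.4 and 53.7% of Hk1 TPM, and Hk1-201, with 945 codons, held 26.2, 43.4 and 41.8%. Replicate 1 leaned further towards Hk1-202 than the others, and the second quantification gave 41.9 ± 1.81 and 41.4 ± 6.88%, so the order of the pair is not settled by these tables. The 2 transcripts begin their coding sequence in separate exons of chromosome 10 on the minus strand of GRCm38, 62340013 to 62340075 and 62358336 to 62358362, shown here from the start codon (capitals) to the end of that exon because these bases tell the transcripts apart.
Hk1-202: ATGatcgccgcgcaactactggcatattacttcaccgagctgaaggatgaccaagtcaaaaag
Hk1-201: ATGggacagaactgccagcgaggacag

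Of the enzyme steps of glycolysis, the one after isomerization had the least RNA. Gpi1, the glucose phosphate isomerase gene, had 61.2, 46.3 and 52.6 TPM. The 3 phosphofructokinase genes, whose product commits sugar to glycolysis, summed to 19.9, 12.2 and 15.3 TPM, against sums of 109, 69.5 and 88.3 TPM for the hexokinases and 194, 135 and 147 TPM for the aldolases. In every library this was the smallest sum among the enzyme steps from glucose to lactate. Within it the platelet-type gene Pfkp led with 11.9, 7.14 and 9.56 TPM, ahead of the liver-type gene Pfkl with 5.83, 3.73 and 4.13 TPM and the muscle-type gene Pfkm with 2.2, 1.29 and 1.61 TPM. Their shares of the step were 60.3 ± 1.96, 29.0 ± 1.86 and 10.7 ± 0.28%. Pfkm was called below the median gene, by 2.03 on the log2 scale (limma adjusted p = 1.3e-05), and the other two were not called.

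Pfkfb3 and Pfkfb4 encode the enzymes that make and remove fructose 2,6-bisphosphate, the strongest known activator of phosphofructokinase. Pfkfb3 had 25.3, 13.0 and 17.1 TPM and Pfkfb4 5.8, 3.33 and 4.44 TPM. Pfkfb3 was higher by 2.11, 1.94 and 1.92 on the log2 scale, 80.1 ± 1.08% of the pair. Pfkfb3 was above the median gene (1.31 ± 0.07, SE, limma adjusted p = 0.0057). Without replicate 1 that call was lost (adjusted p = 0.065).

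**Figure D2:**
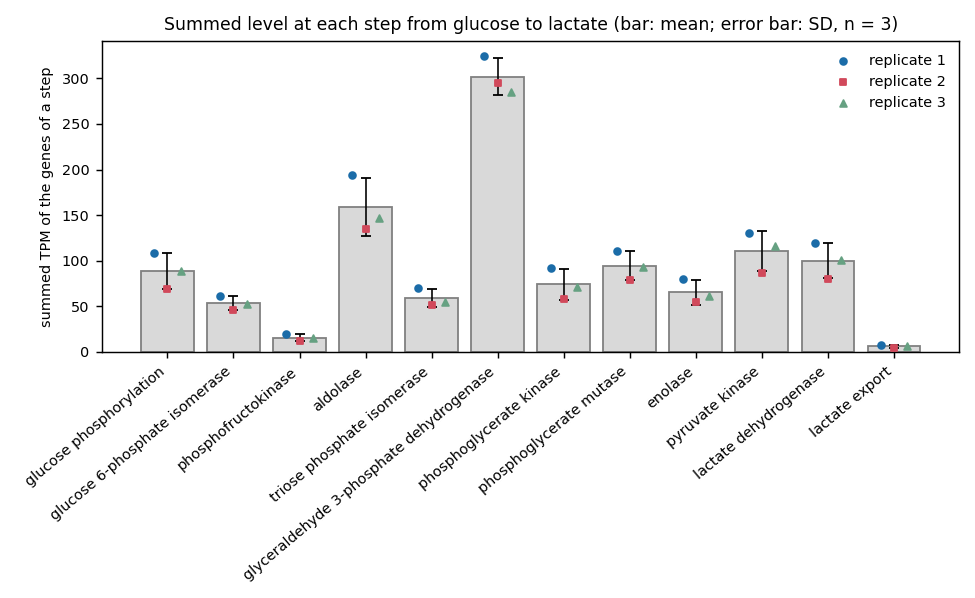
Summed TPM of the genes of each step from glucose to lactate and its export; bars are means, error bars SD over 3 libraries, points the libraries. Phosphofructokinase (12.2 to 19.9 TPM) and the transporters Slc16a1 and Slc16a3 (4.62 to 7.58 TPM) are the lowest bars and Gapdh (285 to 325 TPM) the highest.

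The later steps of glycolysis held the most abundant gene of the set, Gapdh. This gene encodes glyceraldehyde phosphate dehydrogenase and had 325, 295 and 285 TPM, rank 116 of the 9123 tested protein-coding genes. Aldoa, the main aldolase gene, had 189, 131 and 144 TPM, and its brain-type relative Aldoc 5.93, 3.55 and 3.42 TPM. Aldoa was thus 97.3 ± 0.365% of the 2. The triose phosphate isomerase gene Tpi1 had 70.1, 51.1 and 55.2 TPM and the phosphoglycerate kinase gene Pgk1 92.3, 58.3 and 71.3 TPM. Pgam1, of phosphoglycerate mutase, had 111, 79.4 and 93.4 TPM, and Eno1, of enolase, 79.2, 53.8 and 60.2 TPM. Gpi1, Aldoa, Tpi1, Gapdh, Pgk1, Pgam1, Eno1 and Pkm were all called above the median gene, by 2.88 to 5.39 on the log2 scale. The muscle enolase gene Eno3 had 0.99, 0.74 and 0.82 TPM, 1.31 ± 0.067% of the pair with Eno1, and the neuronal enolase gene Eno2, outside the set, had 4.29, 1.77 and 2.54 TPM.

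Several of these genes have near-identical copies in the genome, which can share reads. Aligned transcripts of at least 95% identity over 200 bases were found for Gapdh at 78 other genes, 75 of them pseudogenes. The copies summed to 14.7 TPM, 4.63% of the total with Gapdh, led by Gm7336 at 6.16, Gm10359 at 4.31 and Gm12671 at 1.68 TPM. For Pgk1 the copy Gm5537 stood at 6.05 TPM and for Pgam1 the copy Pgam1-ps2 at 1.64 TPM. The values of Gapdh, Pgk1 and Pgam1 are therefore uncertain, by an amount that was not measured.

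Pyruvate kinase, the last step of glycolysis, came mainly as the M2 form. Pkm had 130, 86.7 and 116 TPM. The gene has a pair of alternative exons of 167 bases each, of which a transcript keeps 1: the M1-type exon, typical of muscle and brain, or the M2-type exon, typical of proliferating cells and of macrophages. In GRCm38 both lie on chromosome 9 on the plus strand, the M1-type exon at 59675029 to 59675195 and the M2-type exon at 59675568 to 59675734. They are identical at 103 positions and differ at 64 (capitals), and reads over those positions tell the forms apart.
M1-type exon: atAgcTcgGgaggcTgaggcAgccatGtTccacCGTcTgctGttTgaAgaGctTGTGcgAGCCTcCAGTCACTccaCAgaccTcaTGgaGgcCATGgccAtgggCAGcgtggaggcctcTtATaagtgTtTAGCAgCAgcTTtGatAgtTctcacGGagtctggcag
M2-type exon: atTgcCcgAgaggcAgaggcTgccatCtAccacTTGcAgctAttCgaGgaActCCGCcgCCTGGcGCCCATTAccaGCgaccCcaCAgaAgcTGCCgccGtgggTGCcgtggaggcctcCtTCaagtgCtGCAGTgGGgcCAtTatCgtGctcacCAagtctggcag

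The transcript with the M2-type exon, Pkm-201, took 86.6, 86.9 and 86.8% of Pkm TPM. The transcript with the M1-type exon, Pkm-202, took 12.7, 12.6 and 12.4%. The other 9 annotated transcripts hold neither exon with its exact start and end and took 0.74, 0.47 and 0.73%. The libraries differed by less than 1 percentage point. The second quantification gave 85.1, 87.7 and 86.8% for the M2-type and 13.6, 11.5 and 11.9% for the M1-type transcript. The liver and red cell pyruvate kinase gene Pklr was listed at 0 TPM in all 3 libraries.

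Lactate dehydrogenase was almost wholly of the A type. Ldha, whose subunit forms the enzyme that favours lactate formation, had 117, 79.1 and 99.9 TPM, and Ldhb, of the heart-type subunit, 1.67, 1.15 and 1.41 TPM. Ldha was 98.6 ± 0.021% of the 2 and exceeded Ldhb by 6.05, 5.99 and 6.05 on the log2(TPM + 0.1) scale. Ldha was above the median gene by 3.76 ± 0.07 (SE) and Ldhb below it by 2.27 (limma adjusted p = 2.5e-07 and 9.4e-06). The lactate transporter genes were not alike in their calls. Slc16a3, of MCT4, had 5.76, 3.68 and 4.75 TPM and was not called, and Slc16a1, of MCT1, had 1.82, 0.94 and 1.54 TPM and was called below. Outside the set, Slc16a7, of MCT2, was higher than both at 23.3, 13.7 and 15.6 TPM, and Bsg, whose product basigin carries MCT1 and MCT4 to the membrane, had 91.2, 52.7 and 71.3 TPM. Both were called above.

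Of the other 24 genes listed for glycolysis and lactate, 2 were above (Bsg and Slc16a7), 5 below (Eno2, Pfkfb2, Tigar, Bpgm and Slc2a3, from 2.93 to 1.25 TPM) and 3 not called. The other 14 had a mean under 1 TPM, among them Pklr at 0. The genes below, and Pklr, were named after their values were seen here and in the lists that follow. The genes not called were the glucose transporter gene Slc2a6, with 26.8, 11.3 and 10.1 TPM, the phosphatase gene Minpp1, with 8.6, 4.14 and 5.77 TPM, and the transporter gene Slc2a8, with a mean of 4.05 TPM. Slc2a6 exceeded Slc2a1 by 4.72, 3.26 and 2.4 times, a comparison chosen after the values were seen.

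Both arms of the pentose phosphate pathway were represented among the higher genes. In the oxidative arm, which yields NADPH, G6pdx had 44.5, 25.4 and 29.5 TPM, Pgls 27.7, 20.5 and 21.8 TPM and Pgd 66.5, 40.3 and 50.7 TPM. These encode glucose phosphate dehydrogenase, the lactonase and phosphogluconate dehydrogenase, and all 3 were above the median gene. G6pdx, the entry enzyme, was lower than Pgd by 0.58, 0.66 and 0.78 on the log2 scale. In the non-oxidative arm, which exchanges sugar phosphates with glycolysis, the transaldolase gene Taldo1 led with 84.2, 55.4 and 68.2 TPM and the transketolase gene Tkt had 54.5, 33.9 and 43.0 TPM, both above the median gene.

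The enzymes that interconvert pentose phosphates were lower. Rpia, of ribose phosphate isomerase, had 3.0, 2.19 and 2.27 TPM and was called below (1.49 lower on the log2 scale, limma adjusted p = 0.00058). Rpe, of the epimerase, had 8.83, 5.89 and 6.63 TPM and was not called. Rpe is uncertain, because it shares 558 bases of its transcript with the antisense gene Kansl1l (3.44 TPM) and it is not given whether strand was counted. The highest of the other 10 pentose phosphate genes were Prps2 at 15.2, Pgm1 at 6.73, Pgm2 at 5.74 and H6pd at 4.21 TPM. None of the 10 was above, those 4 were not called, 2 were below (Rbks at 2.94 and Prps1 at 1.22 TPM) and 4 were under 1 TPM (Shpk, G6pd2, Tktl1 and Tktl2).

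Most Tkt RNA was assigned to a transcript without an annotated coding sequence. Tkt-209 took 77.9, 71.8 and 79.4% of Tkt TPM and the coding transcript Tkt-201 21.4, 27.7 and 19.5%. The second quantification gave 82.9 ± 2.3 and 16.6 ± 2.5%. Both have 14 exons and share 12 of them at the same coordinates. Tkt-209 starts within the gene, at 30557609 of chromosome 14, where Tkt-201 starts at 30549131, and its last exon ends earlier, at 30573624 against 30574720. With protein-coding transcripts alone, Tkt minus Taldo1 was -2.60 ± 0.18 on the log2 scale (an alternative chosen after the values were seen), against -0.67 ± 0.04 for all transcripts.

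Of the 5 pyruvate entry genes in the set, 4 lay near the median gene and Pcx far below it. The pyruvate dehydrogenase E1 genes Pdha1 and Pdhb had 15.5, 9.39 and 12.5 TPM and 17.2, 11.2 and 13.8 TPM, a difference of 0.15, 0.25 and 0.14 on the log2 scale. Dlat, of the E2 subunit, had 7.7, 4.97 and 6.17 TPM, lower than Pdhb by 1.15 in each library. Pdk1, of a kinase that switches the complex off, had 6.26, 3.6 and 4.26 TPM. None of these 4 was called. Pcx, of pyruvate carboxylase, which refills the cycle with oxaloacetate, was the lowest gene of the set at 0.15, 0.1 and 0.13 TPM, from 45, 43 and 66 counts. Of the other 11 genes of pyruvate entry, Mpc1, of the mitochondrial pyruvate carrier, stood at 73.1 TPM and Dld, of the shared E3 subunit, at 17.5 TPM, both above. Mpc2 (15.6 TPM) and the phosphatase gene Pdp1 (8.12 TPM) came next and were not called, nor was Pdpr. The 4 below were Pdhx, Pdk3, Pdk2 and Pdp2, from 2.99 to 2.11 TPM, and Pdk4 and Pdha2 were under 1 TPM.

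Of the 14 TCA cycle genes 9 were above the median gene and none below, with means from 3.4 (Suclg2) to 53.4 TPM (Idh1). Citrate synthase, Cs, had 34.1, 21.5 and 24.2 TPM. Of the NADP-dependent isocitrate dehydrogenases, cytosolic Idh1 had 63.8, 42.2 and 54.4 TPM and mitochondrial Idh2 21.9, 16 and 19.4 TPM, so that Idh1 was higher by 1.54, 1.39 and 1.49 on the log2 scale. Idh1 was the highest gene of the branch as listed, at 2.87 ± 0.07 (SE) above the median gene (limma adjusted p = 8e-07). Its enzyme is cytosolic, and the highest gene of a mitochondrial enzyme in the branch was Mdh2, at 2.18 ± 0.06 (SE).

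The subunits of NAD-dependent isocitrate dehydrogenase, the enzyme of the cycle proper, were unequal. Idh3b had 25.6, 17.0 and 18.6 TPM and Idh3g 20.6, 14 and 15.7 TPM, both called above, and the catalytic subunit gene Idh3a had 5.16, 3.64 and 4.61 TPM and was not called. The share of Idh3a in the 3 was 10.8 ± 0.935%. Idh3b exceeded Idh3a by 2.29, 2.20 and 1.99 on the log2 scale. Idh3g was called narrowly, at 1.21 ± 0.06 (limma adjusted p = 0.0099), and was not called without replicate 1 (adjusted p = 0.063) or with a pseudocount of 1 (adjusted p = 0.084). Part of the Idh3a RNA was assigned to Idh3a-203, a transcript with a retained intron, at 43.3, 38.5 and 45.6% of Idh3a TPM.

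Further round the cycle the genes of the oxoglutarate dehydrogenase complex, Ogdh and Dlst, had 28.7, 18.3 and 22.0 TPM and 26.0, 16.4 and 18.3 TPM. Both were above. The succinate-CoA ligase genes were lower and not called. Suclg1, of the common alpha subunit, had 12.4, 8.36 and 10.7 TPM, Sucla2, of the ADP-forming beta subunit, 11.1, 7.5 and 8.91 TPM, and Suclg2, of the GDP-forming one, 4.48, 2.72 and 3.01 TPM. Sucla2 exceeded Suclg2 by 1.28, 1.43 and 1.53 on the log2 scale. Fh1, of fumarase, stood at 9.84, 6.59 and 6.87 TPM, not called. Mdh1, of cytosolic malate dehydrogenase, had 30.6, 20.8 and 24.1 TPM and Mdh2, of the mitochondrial form, 38.5, 27.3 and 32.7 TPM, both above. Mdh2 was higher by 0.33, 0.39 and 0.44 on the log2 scale, but this order turned in the second quantification (Mdh1 higher by 0.04) and with coding transcripts alone (0.14).

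Of the other 17 TCA cycle genes listed, 7 were above, 1 below (Pck2 at 2.42 TPM) and 4 not called, among them Got2, Aco1 and Me2, from 11.5 to 5.0 TPM. The other 5 were under 1 TPM (Me1, Dhtkd1, Ogdhl, Me3 and Pck1). All 4 subunit genes of succinate dehydrogenase were above: Sdha at 37.8 ± 9.52, Sdhd at 33.6 ± 8.55, Sdhb at 33.2 ± 5.06 and Sdhc at 24.1 ± 4.31 TPM. Also above were Glud1 at 38.6 ± 10.5 TPM, of glutamate dehydrogenase, and Got1 at 24.8 ± 6.65 TPM, of a transaminase.

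Citrate leaves mitochondria through a carrier and is cleaved by ATP citrate lyase. Acly, of that lyase, had 26.4, 16.8 and 20.8 TPM and was above the median gene by 1.55 ± 0.06 (SE, limma adjusted p = 8.7e-05). The citrate carrier gene Slc25a1 had a mean of 15.6 TPM and was not called. Of the 7 carrier genes, Slc25a11 (25.2 TPM), of the oxoglutarate carrier, was above and 4 were not called, Slc25a1 with Slc25a10 (12.9 TPM), Slc25a12 (5.61 TPM) and Slc25a13 (5.1 TPM). The plasma membrane carrier genes Slc13a3 and Slc13a5 were under 1 TPM.

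Acod1, the itaconate gene, had 151, 79.0 and 42.1 TPM. It lies at 103046977 to 103056573 of chromosome 14 of GRCm38, on the plus strand, and has 1 annotated transcript of 5 exons. Replicate 1 was highest and replicate 3 lowest, unlike all other genes of the set except Gapdh and Aldoc, whose lowest TPM was also in replicate 3. Relative to the median gene, Acod1 stood 4.04, 3.76 and 2.60 higher on the log2 scale, and it was called above in the fit of all 3 libraries (3.47 ± 0.26, SE, limma adjusted p = 0.00011). Its TPM was 2.37, 1.87 and 0.774 times that of Idh1 in replicates 1, 2 and 3, so it lay above Idh1 in replicates 1 and 2 and below it in replicate 3. These ratios were chosen after the values were seen. Of the 3 genes for breaking itaconate down, Auh stood at 6.68 TPM and was not called, Clybl at 1.13 TPM and was called below, and Sugct at 0.257 TPM, under the minimum of the test.

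Of the 51 genes Acod1 varied most between libraries. After scaling by edgeR's TMM library sizes it stood at 502, 412 and 185 CPM, a ratio of 2.72 from highest to lowest. It was the only one of the 51 genes over 1.5-fold. Among all 13026 genes tested, 17.1% passed 1.5-fold, and among the 3787 of at least 10 TPM, 6.21% did so and 0.898% (34 genes) reached the ratio of Acod1. Its biological coefficient of variation in edgeR was 0.314, at percentile 94.9 of all genes tested, where the other 50 lay between 0.0812 and 0.251. The glucose transporter gene Slc2a6, outside the set, had the same order, with 72.9, 46.9 and 36.2 CPM. The neutrophil markers summed to 56.9, 41.7 and 42.8 TPM and the nuclear RNAs to 465, 135 and 361 TPM in the same libraries. These sums are not scaled by TMM as the CPM are, and the median gene stood at 9.08, 5.76 and 6.86 TPM. The part of neutrophil or nuclear RNA in the Acod1 difference was not tested. In bulk RNA, fewer cells that express a gene and less RNA per cell cannot be told apart.

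**Figure D3:**
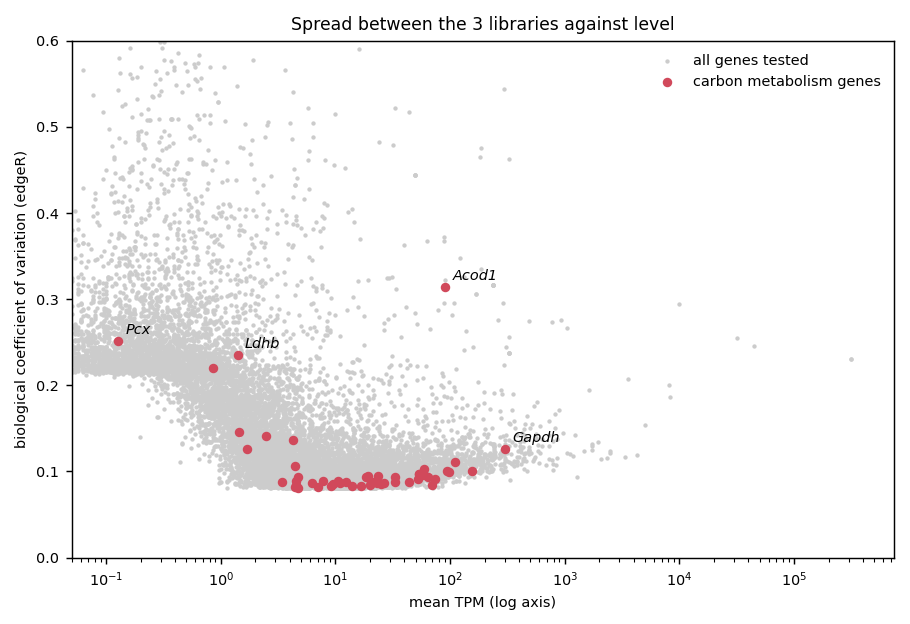
Biological coefficient of variation between the 3 libraries against mean TPM (log axis) for all genes tested (grey) and the 51 genes (red); 38 genes lie above the axis and 150 to its left. Acod1 (0.314 at 90.8 TPM) stands above the other 31 red points of at least 10 TPM, which lie between 0.0832 and 0.126.

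The other genes varied little. A chi-square test of counts against library size, adjusted over all 13026 genes by the Benjamini-Hochberg method, found 36 of the 51 to differ between libraries by more than counting noise, where it found 62.5% of all genes to do so, so the count is close to the background. Without replicate 3 it was 22. The median ratio of highest to lowest over the 51 was 1.11, against 1.19 over all genes tested, and the median coefficient of variation 0.0912 against 0.122. These medians are not matched for level: 32 of the 51 had a mean of at least 10 TPM, against 3787 of the 13026. After Acod1 the widest ratios were those of Pcx and Ldhb, 1.49 and 1.48, from at most 66 and 181 counts, followed by Aldoc and Slc16a1, both 1.39. Gapdh, often used as a reference gene, differed by 1.28-fold between replicates 2 and 1, and Pgk1, Tkt and Taldo1 by 1.03-fold.

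All 20 comparisons between isozymes or subunits kept 1 direction in all 3 libraries. The exact sign-flip permutation test of each gave p = 0.25, also after adjustment over the 20, which is the smallest 2-sided value that 3 libraries allow. The widest gaps were Eno1 over Eno3 (6.07 ± 0.10, SD), Ldha over Ldhb (6.03 ± 0.04) and Aldoa over Aldoc (5.16 ± 0.19) on the log2(TPM + 0.1) scale, and the narrowest Pdhb over Pdha1 (0.18 ± 0.06).

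**Figure D4:**
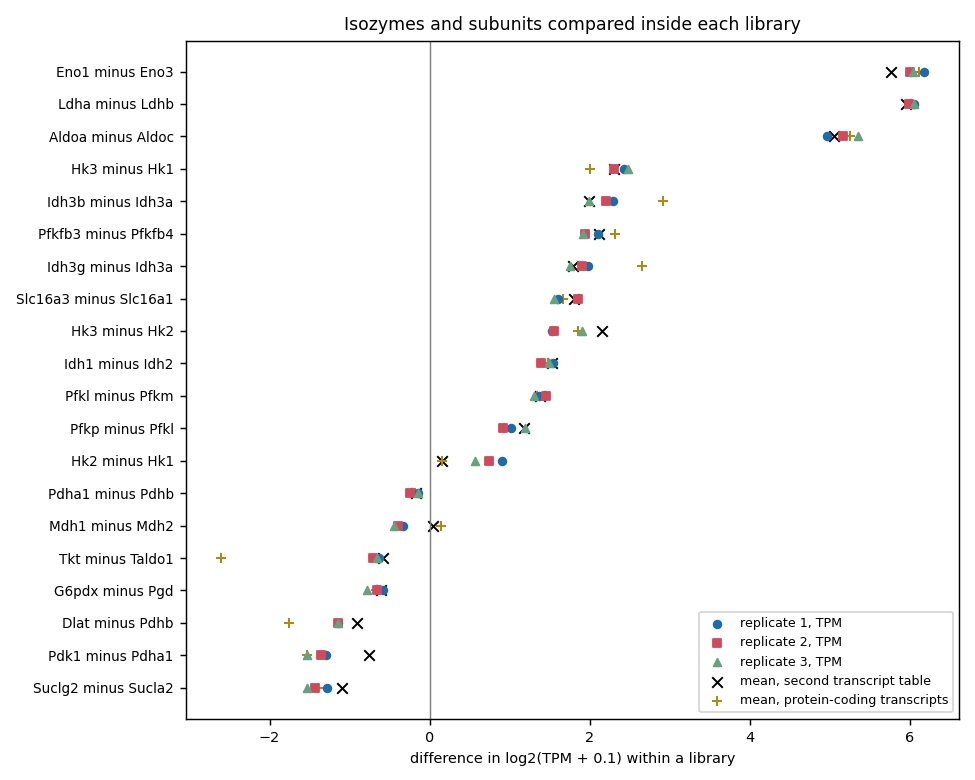
Difference in log2(TPM + 0.1) between the genes of each pair in replicates 1, 2 and 3, with the mean from the second transcript table (cross) and from protein-coding transcripts alone (plus). Eno1 over Eno3 and Ldha over Ldhb lie near 6, and the crosses of Mdh1 against Mdh2 (0.04) and Hk2 against Hk1 (0.16) lie near 0.

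How much of each gene's RNA was assigned to coding transcripts varied. The 51 genes have 370 annotated transcripts, 186 of them protein coding, and 49 genes have more than 1. The most abundant transcript was coding for 49 of the 51, the others being Tkt-209 and Idh3a-203, and the 2 quantifications named the same one for 46 genes. In 40 genes at least 90% of TPM was coding in the first table, and in 33 of them in both. In 9 genes the share was under 80%, and in 5 of these in both tables: Tkt (22.9 ± 4.28% and 16.7 ± 2.43%), Idh3a (54.4 ± 6.91% and 29.7 ± 2.83%), Dlat (64.4 ± 2.64% and 52.8 ± 3.93%), Gpi1 (69.8 ± 9.39% and 64.9 ± 11.3%) and Pfkfb4 (72.0 ± 6.33% and 75.1 ± 5.2%). The other 4 were Hk2, Hk3, Mdh2 and Dlst, at 66.1, 76.3, 67.2 and 68.4% in the first table and 100, 89.7, 87.2 and 81.2% in the second. Pdk1 went the other way, with 90.4 ± 9.1% and 38.7 ± 4.88%. So did Slc2a1, with 85.1 ± 5.69% and 61.8 ± 4.89%, and the barely detected Pcx, with 100% and 60.5 ± 34.7%.

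**Figure D5:**
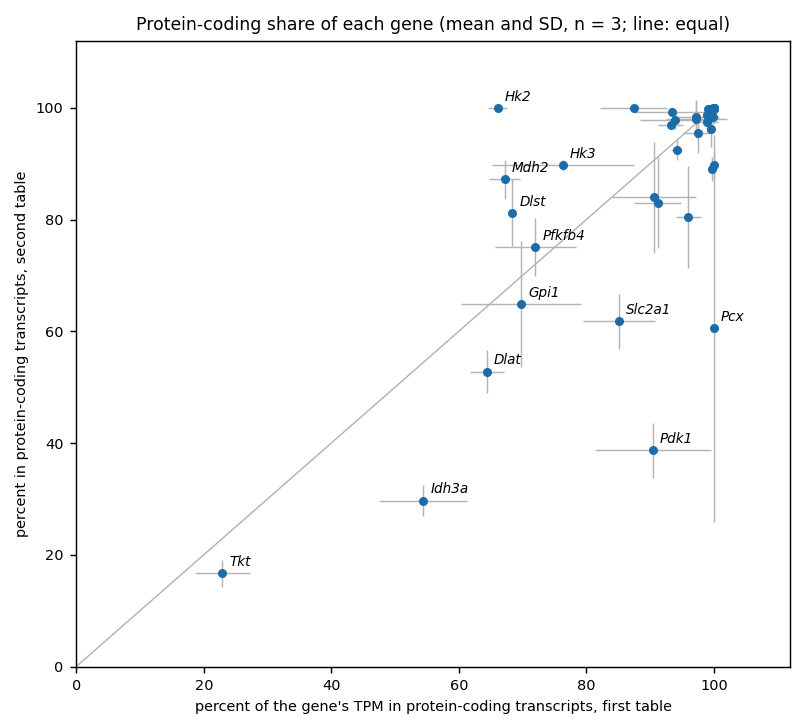
Percent of each gene's TPM in protein-coding transcripts in the first (horizontal) and second (vertical) deposited transcript table, mean and SD over 3 libraries; the line marks equal values. Tkt (22.9 and 16.7%) and Idh3a (54.4 and 29.7%) are low in both, whereas Hk2 (66.1 and 100%) and Pdk1 (90.4 and 38.7%) lie far from the line.

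Of the 49 genes with more than 1 transcript, 20 had at least 90% of TPM in a single one in the first table, and in 18 the same transcript also reached 90% in the second. These 20 were Pgk1, Pgam1, Eno1, Ldha, Tpi1, Pgd, Cs, Idh1, Idh2, Suclg1, Pdha1, Pdhb, Pgls, Rpia, G6pdx, Pfkl, Idh3b, Idh3g, Rpe and Pdk1, of which Rpe and Pdk1 had 75.9 and 38.7% in the second table. Acod1 and Slc16a1 have 1 annotated transcript each. The most abundant transcript of Aldoa, Taldo1, Ogdh, Slc2a1 and Mdh1 took 87.4 ± 1.43, 87.3 ± 5.22, 85.7 ± 1.92, 82.6 ± 6.06 and 80.8 ± 6.72% in the first table and 84.2, 99.7, 85.2, 55 and 58.7% in the second. For Suclg2 the tables named different transcripts. Suclg2-204 took 61.4, 100 and 100% in the first and 26.1 ± 0.831% in the second, where Suclg2-201 led with 61.6 ± 3.93%. For Gapdh, Gapdh-203 took 51.1 ± 8.28% and Gapdh-202 42.2 ± 2.62%. In the first table the leading transcript took between 35.5% (Pfkfb3-206) and 76.1% (Eno3-201) for Hk1, Hk2, Hk3, Gpi1, Pfkm, Pfkp, Pfkfb4, Aldoc, Ldhb, Slc16a3, Dlat, Pcx, Sucla2, Fh1, Mdh2, Dlst and Acly.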

How the data were processed

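The 3 libraries are total RNA-seq of the macrophage cytosol described above. The deposited gene tables give, per the file headers, an expected count, TPM and FPKM per gene, in columns named as RSEM writes them, and the first deposited transcript tables split that TPM over transcripts as a percent. Another set of transcript tables was deposited with kallisto's column names, holding estimated counts and TPM, and its TPM was summed per gene. Per the deposited description files, mm10 and GENCODE M21 were used. The aligner, the quantifiers' versions and any use of strand are not stated in the labels or headers used here.

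Names, biotypes, coordinates and transcript sequences came from GENCODE M21 (GRCm38). Rows of no annotated gene held 0.26, 0.0933 and 0.0577% of counts and were left out. The members, branches, pairs and lists were chosen with earlier results of these data known. All members are named, with the 4 highest genes of each other pathway list, any gene called above, markers of at least 1 TPM, the leading transcript of each gene and copies that reach 1 TPM. Some genes of the other lists are counted but not reported here by name.

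The level test was limma's treat (version 3.58.1, R 4.3.3), intercept only, on log2(TPM + 0.1) minus the library median of the 9123 protein-coding genes with a mean of at least 1 TPM, trended prior. The pseudocount makes differences of low genes smaller. Expected counts were rounded, filtered with filterByExpr and scaled by TMM in edgeR 4.0.16, which left 13026 genes. Isozymes were compared within a library. Copies were found with blastn 2.17.0. Shares were computed with Python 3.11.15 and statsmodels 0.14.6. Both fits were tested on simulated data. Of 100 genes changed 1.5-fold between libraries among 11468, 90 were recovered. All 50 genes set 2 on the log2 scale above the median gene were recovered among 9123. The simulated counts had counting noise alone, and the simulated levels the same SD for every gene. Levels between 1 and 2 on the log2 scale were not simulated, so recovery of genes just outside the band is not known. Alternatives were the second quantification, rescaled TPM, FPKM, another pseudocount, other filters, DESeq2 1.42.0 size factors and leaving out each library.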

Additional observations from a re-analysis of the deposited data

How the results depend on the processing

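Of the 28 genes above and 4 below the median gene, 17 and 0 were called with a minimum mean of 5 TPM, where fewer genes enter and the median gene is higher. With kallisto's TPM 21 were above and 1 below. Pfkm, Slc16a1 and Ldhb, at 0.745, 0.616 and 0.575 TPM, were there under the minimum and not tested. Without a filter on low values 37 were above and 2 below, counted over all members, as Eno3 and Pcx then also enter. None of the 4 genes below in the main test kept that call without the filter, with Pfkm at -0.67 on the log2 scale. Rescaled TPM, FPKM and a pseudocount of 1 gave 27 to 29 above and 4 or 5 below. Leaving out a library gave 26 to 28 above and 4 below. Without a filter Rpe and Dlat, which were not called, turned to log2 levels of 1.34 and 1.16, since more low genes enter and the median gene is lower. Hk2, Pfkfb3, Idh2, Idh3b, Idh3g, Dlst and Acly were not called above with kallisto's TPM, and the cause was not tested.

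Of the 20 pairs, 17 to 20 kept the direction of the main value in every library. Mdh1 minus Mdh2 turned from -0.39 to 0.04 with kallisto's TPM, to 0.12 with expected counts not divided by length and to 0.14 with protein-coding transcripts, an alternative chosen after seeing the data. With expected counts Pdha1 minus Pdhb turned to 0.83 and Tkt minus Taldo1 to 0.39, as counts are not per length. The 36 genes whose counts differed between libraries became 22 to 27 when a library was left out, and 36 and 39 with DESeq2 size factors and no filter.

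The Pkm shares were 86.5 ± 1.34 and 12.3 ± 1.13% for the M2-type and M1-type exon with kallisto's TPM, and 86.7 to 86.9 and 12.5 to 12.6% when a library was left out. Branch medians with kallisto's TPM were 1.03 for glycolysis, -1.71 for lactate, 1.76 for pentose phosphate, -0.40 for pyruvate entry, 0.93 for the TCA cycle and 2.12 for Acly with Acod1. With a pseudocount of 1 those that moved by more than their SD were 1.28, -1.11, 2.03 and 1.32 for glycolysis, lactate, pentose phosphate and the TCA cycle. Leaving out a library gave 1.30 to 1.43 for glycolysis, -1.44 to -1.34 for lactate, 2.06 to 2.22 for pentose phosphate, -0.22 to -0.16 for pyruvate entry, 1.40 to 1.43 for the TCA cycle and 2.32 to 2.71 for Acly with Acod1. No paired analysis was possible because the series has 1 group. With 3 libraries the exact sign-flip test cannot go below p = 0.25, and genes such as Pcx rest on at most 66 counts in a library.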
